A study of Homo sapiens with 4 samples.

Results

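The genes described here encode the exchangeable catalytic subunits of the proteasome and the proteins that act next to them in making peptides for MHC class I. They are the immunoproteasome subunits PSMB8, PSMB9 and PSMB10, their constitutive counterparts PSMB5, PSMB6 and PSMB7, the PA28 activator genes PSME1 and PSME2, and the aminopeptidase genes ERAP1 and ERAP2. These 10 genes were chosen by name, with every probe set that the platform's annotation gave to the gene alone. That rule found 18 of the 54613 probe sets tested, for 9 of the 10 genes. PSME2 had 0 such probe sets, since its 1 probe set carried MIR7703 as a second symbol. PSMB8, PSMB9, PSMB10, PSMB5, PSMB6 and PSME1 had 1 probe set each, PSMB7 had 2, and ERAP1 and ERAP2 had 5 each.

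The RNA came from KM-H2, an established Hodgkin lymphoma cell line. The knockdown group was treated with small interfering RNA against PTPN1, a phosphatase that removes phosphate from tyrosines, JAK kinases among its known substrates, and the control group carries the label non-silencing (control arrays from here on). Each group has 2 arrays, which the submitters call technical replicates. Every SD, SE and p-value therefore measures the spread between arrays and not between cultures. All values are log2 signals after RMA, a normalization that gives the arrays nearly the same distribution, and a difference of 1 is a factor of 2.

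The proteasome is a barrel of stacked rings that cuts ubiquitin-tagged proteins into peptides. Its cutting sites lie in 3 beta subunits, which are PSMB6, PSMB7 and PSMB5 in most cells. In lymphoid cells, and in other cells exposed to interferon gamma, newly assembled barrels take up PSMB9 in place of PSMB6, PSMB10 in place of PSMB7 and PSMB8 in place of PSMB5. PA28, a ring of PSME1 and PSME2 proteins, docks on the barrel's ends, the TAP1 and TAP2 transporter carries peptides into the endoplasmic reticulum, and ERAP1 and ERAP2 trim them there.

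PTPN1 read 8.16 and 8.40 in control arrays 1 and 2 and 7.0 and 7.36 in knockdown arrays 1 and 2, a log2 difference of -1.10 (SE 0.18) that did not pass in the fit without a term for the array number (limma adjusted p = 1.0). All 8 Hodgkin cell markers checked, among them TNFRSF8 (CD30), lay above the median of all values, 5.11. Among markers of other cell types, the log2 of the summed signal ranged over the 4 arrays from 8.2 to 8.44 for B cells (3 of 5 measured markers above the median), 10.04 to 10.6 for T cells (2 of 4), 7.95 to 8.46 for monocytes (2 of 4), 8.87 to 10.1 for fibroblasts (1 of 4) and 7.44 to 7.56 for epithelium (2 of 4). Each sum is of unlogged signals, so its brightest marker weighs most. CD3D, a T cell receptor component, read from 9.76 to 10.4 and COL1A1, a collagen, from 8.63 to 10.01. CD3G, another such component, read 7.55 and 7.63 in the control arrays and 7.12 and 7.06 after knockdown, a log2 difference of -0.51. Only the epithelial sum was lower in both knockdown arrays than in both control arrays, by a small margin. For the sums of the other lists except the Hodgkin markers (12.4 to 12.8, higher in both knockdown arrays) the groups overlapped. Among single markers outside the Hodgkin list, the groups were apart in the lower direction for MS4A1, CD3G, CSF1R and COL1A2 (15% of all genes). They were apart in the higher direction for DCN (12.4% of all genes). The part of these markers in the results below was not tested.

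Promoter windows show what several of these genes share in sequence. Interferon-response elements are known to hold paired copies of TTTC, and RefSeq's windows on GRCh38.p14 (250 bases before to 50 bases after an annotated start) were searched on either strand for 2 copies of TTTC with any 2 bases between them. This paired motif was found in 6 of the 12 windows of these genes, against 3.57% of all 35116 windows. The 6 windows belong to 6 of the 8 genes with a window: PSMB8, PSMB10, PSME1, PSME2, ERAP1 and ERAP2. PSMB5 (2 windows) and PSMB9 (1 window) had no match, and PSMB6 and PSMB7 have no entry. The 30 bases around each match follow, 5′ to 3′ on the gene's strand, with the match in capitals. The stretch of TAP1, the gene next to PSMB9, is added because its window meets that of PSMB9.
PSMB8 (chr6:32844032-32844061, minus strand): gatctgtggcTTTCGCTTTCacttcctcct
PSMB10 (chr16:67936852-67936881, minus strand): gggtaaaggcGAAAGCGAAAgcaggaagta
PSME1 (chr14:24136189-24136218, plus strand): gccctaccgcTTTCGCTTTCccttcgcggt
PSME2 (chr14:24146619-24146648, minus strand): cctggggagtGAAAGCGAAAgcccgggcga
ERAP1 (chr5:96807924-96807953, minus strand): cgggctccacTTTCACTTTCggtcctgggg
ERAP2 (chr5:96876460-96876489, plus strand): tcttagaacaGAAAGTGAAAgcaaaagtaa
TAP1 (chr6:32853816-32853845, minus strand): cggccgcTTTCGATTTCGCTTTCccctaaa

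The core TTTCGCTTTC, read on one strand or the other, was the same in PSMB8, PSMB10, PSME1, PSME2 and TAP1, and ERAP1 and ERAP2 shared TTTCACTTTC. All 6 matches of these genes lay close to the annotated start, from base -30 in ERAP2 to base 15 in PSME1. The TAP1 window holds 2 overlapping matches, at bases -134 to -119. PSMB9 shows no match in the 250 bases before its start, which are printed because its probe set gave the only pair of fully separated groups among the catalytic subunits.
PSMB9 (chr6:32853942-32854191, plus strand): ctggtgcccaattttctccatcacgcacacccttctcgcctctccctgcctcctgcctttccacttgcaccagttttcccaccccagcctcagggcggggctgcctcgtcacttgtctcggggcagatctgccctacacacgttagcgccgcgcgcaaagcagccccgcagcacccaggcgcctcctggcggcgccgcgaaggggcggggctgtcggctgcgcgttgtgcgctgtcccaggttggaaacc

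Other motifs were less frequent among these windows. TTCNNNGAA, the form of STAT sites, was in 2 of the 12 windows (1 each of PSMB8 and PSMB5; 7.66% of all windows). CCAAT was in 3 (PSMB9, PSMB5 and ERAP1; 34.6% of all) and TGACNNNGC, the form of antioxidant response elements, in 3 (PSMB9, PSME1 and PSME2; 13.3% of all). The 10-base consensus of the NF-kB site was in 0 of the 12 (0.191% of all) and in 1 TAP1 window. All were sought on both strands. In PSMB8 the STAT form lies at bases -65 to -57 and does not overlap the paired TTTC match.

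All 3 immunoproteasome subunits gave higher signals in the knockdown array than in the control array of the same number. Of all genes, 27.8% were higher within both array numbers. The immunoproteasome factors were 1.19 to 1.27 between the group means, while the 3 constitutive subunits differed by 0.06 or less on the log2 scale. No difference passed the test across all probe sets. Of the 18 member probe sets 0 had a limma adjusted p under 0.05, and so did 0 of all 54613 (0%). At an unadjusted limma p under 0.05 there was 1 member, PSMB9, against 1.44% of all probe sets in that direction.

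PSMB9 (LMP2), the counterpart of PSMB6, read 10.59 and 10.60 in the control arrays and 11.02 and 10.88 after knockdown. Both knockdown arrays lay above both control arrays. The log2 difference was 0.35 (SE 0.13, 95% interval 0.02 to 0.68; limma adjusted p = 1.0), a factor of 1.27. It was 0.42 in array number 1 and 0.28 in array number 2, and leaving out 1 array gave 0.28 to 0.42. PSMB9 was the steadiest of the immunoproteasome genes between arrays of a group, with SDs of 0.0068 (n = 2) and 0.096 (n = 2).

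PSMB8 (LMP7), the counterpart of PSMB5, read 10.85 and 10.37 in the control arrays and 11.28 and 10.63 after knockdown. The groups overlapped, because knockdown array 2 lay below control array 1. The difference was 0.35 (SE 0.28, 95% interval -0.35 to 1.04; limma adjusted p = 1.0), with 0.43 and 0.26 within the array numbers. Leaving out 1 array moved it from 0.022 (without knockdown array 1) to 0.67 (without knockdown array 2).

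PSMB10 (MECL-1), the counterpart of PSMB7, read 11.28 and 10.50 in the control arrays and 11.67 and 10.61 after knockdown. The groups overlapped here too, and the arrays numbered 1 stood above the arrays numbered 2 in both groups. The difference of 0.25 had an SE of 0.42 (95% interval -0.82 to 1.31; limma adjusted p = 1.0). It was 0.39 and 0.10 within the array numbers, and its sign turned without knockdown array 1 (-0.29) and without control array 2 (-0.14).

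**Figure D1:**
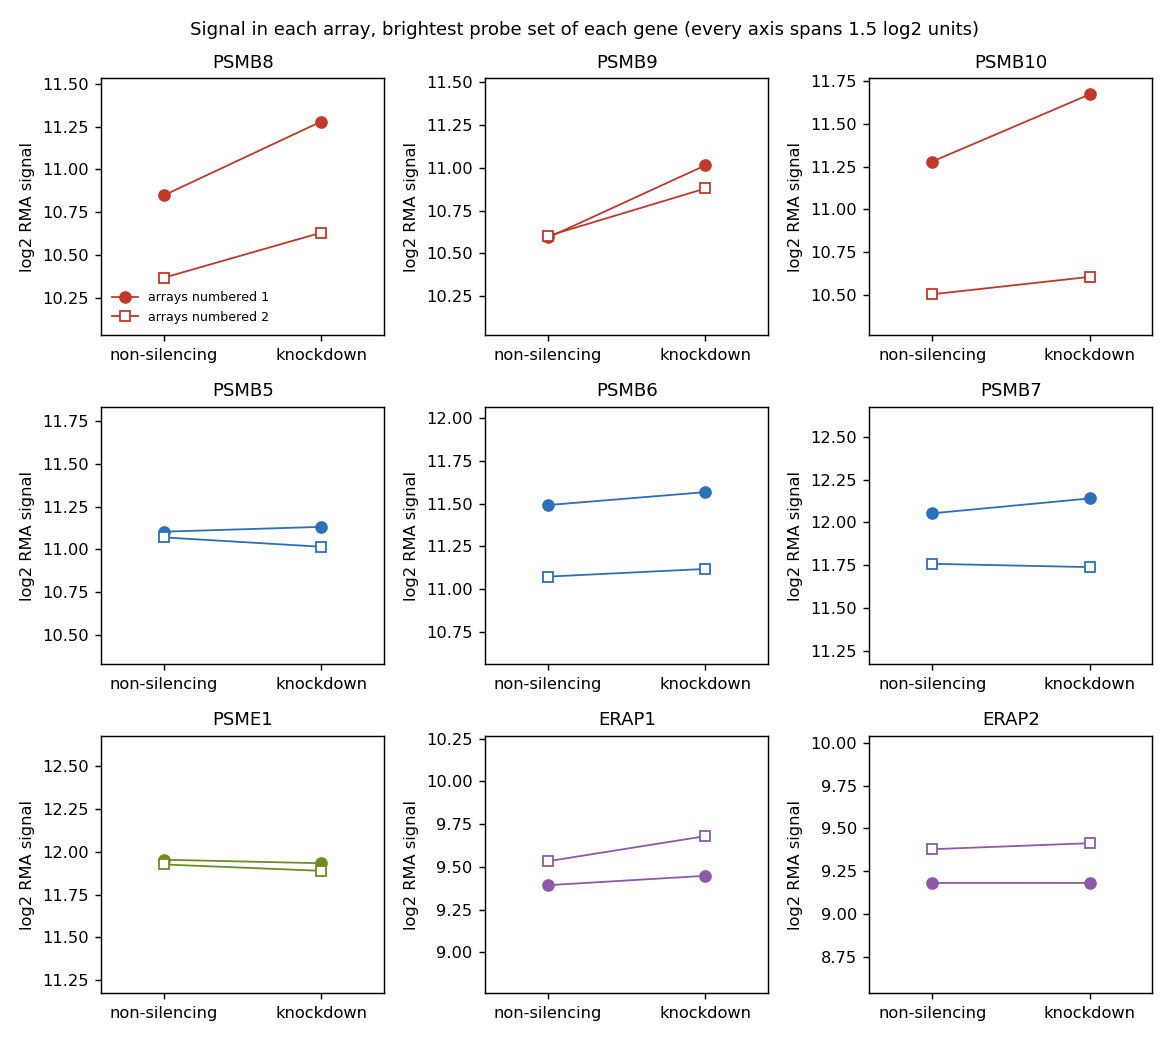
Log2 RMA signal (vertical axes, each spanning the same range) of the brightest probe set of each of 9 genes in the non-silencing and knockdown arrays; filled circles are the arrays numbered 1, open squares those numbered 2, and lines join arrays of the same number. In the top row PSMB8, PSMB9 and PSMB10 slope upward in both numbers, and PSMB8 and PSMB10 show wide gaps between the numbers, whereas PSME1 and PSMB5 lie almost flat.

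PSMB5 carries the chymotrypsin-like site of the constitutive barrel. It read 11.10 and 11.07 in the control arrays and 11.13 and 11.02 after knockdown, a difference of -0.01 (SE 0.13, 95% interval -0.34 to 0.31). PSMB6 carries the caspase-like site. It read 11.49 and 11.07 against 11.57 and 11.12, a difference of 0.06 (SE 0.22, 95% interval -0.51 to 0.63). The groups overlapped for both genes.

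PSMB7 carries the trypsin-like site. Its brighter probe set, 200786_at, read 12.05 and 11.76 against 12.14 and 11.74, a difference of 0.03 (SE 0.20, 95% interval -0.46 to 0.53). The other, 244801_at, was dim at 4.91 to 5.06 and differed by 0.02 (SE 0.13). In this fit, which has no term for the array number, the intervals of all 3 constitutive genes include the values measured for PSMB8, PSMB9 and PSMB10, except that the upper bound for PSMB5, 0.31, lies below the 0.35 of PSMB8 and PSMB9.

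Each immunoproteasome gene was set against its counterpart by subtracting the counterpart's knockdown difference from its own. PSMB8 exceeded PSMB5 by 0.36, with 0.40 and 0.32 within the array numbers. PSMB9 exceeded PSMB6 by 0.29, with 0.35 and 0.23. PSMB10 exceeded PSMB7 by 0.21, with 0.31 and 0.12. All 6 within-number values were positive, and no share over other pairs of genes was worked out to set beside them. When the counterpart's signal was subtracted within each array, the groups overlapped in every pair. For PSMB9 minus PSMB6 the control arrays gave -0.90 and -0.47 and the knockdown arrays -0.55 and -0.24, so the separation seen for PSMB9 alone was not kept. Without 1 array the values ranged from 0.094 to 0.63 for PSMB8 and PSMB5, from 0.075 to 0.50 for PSMB9 and PSMB6, and from -0.12 to 0.55 for PSMB10 and PSMB7. With 2 arrays in each group an exact permutation test cannot give a two-sided p below 0.333, and no other test of these differences was run.

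**Figure D2:**
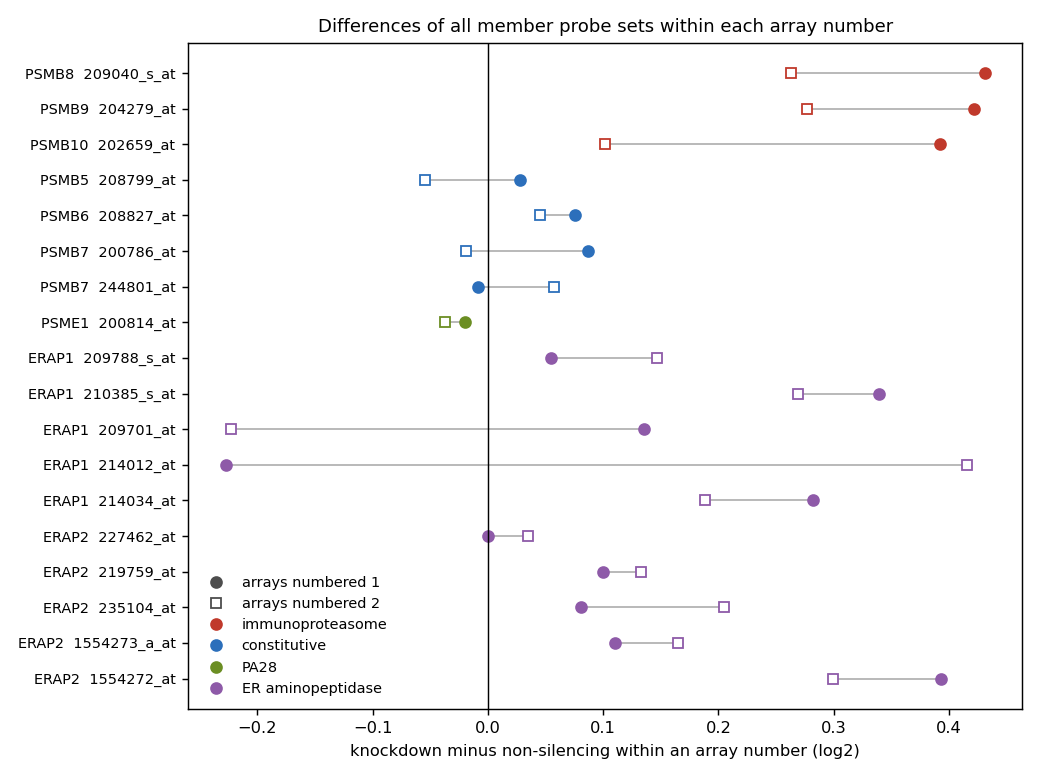
Log2 difference between knockdown and control arrays of the same number (horizontal axis) for all 18 probe sets (vertical axis); filled circles are the arrays numbered 1, open squares those numbered 2, and colours give the gene group. PSMB8, PSMB9 and PSMB10 lie at 0.10 to 0.43, whereas the probe sets of PSMB5, PSMB6, PSMB7 and PSME1 lie between -0.05 and 0.09.

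PSME1, which encodes PA28 alpha, had the narrowest range over the 4 arrays among the 18 probe sets. It read 11.95 and 11.93 in the control arrays and 11.93 and 11.89 after knockdown, a difference of -0.03 (SE 0.12, 95% interval -0.34 to 0.29). It was the 1 member probe set lower within both array numbers, by -0.02 and -0.04, against 28.5% of all probe sets. The probe set 201762_s_at, annotated to PSME2 and MIR7703 together and therefore left out of the counts for PSME2, read 11.75 and 11.29 against 11.95 and 11.43. Its difference was 0.17 (SE 0.25, 95% interval -0.44 to 0.79), with 0.21 and 0.14 within the array numbers.

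The 5 ERAP1 probe sets disagreed. ERAP1 trims peptides to the length that MHC class I molecules bind. Its brightest probe set, 209788_s_at, read 9.39 and 9.53 in the control arrays and 9.45 and 9.68 after knockdown, a difference of 0.10 (SE 0.15), and the groups overlapped. The dimmer 210385_s_at read 6.08 and 6.14 against 6.42 and 6.41, a difference of 0.30 (SE 0.13, limma adjusted p = 1.0) with the groups apart. The probe sets 209701_at (-0.04) and 214012_at (0.09) had opposite signs in the 2 array numbers, and 214034_at, at 2.85 to 3.32, differed by 0.23. A single level for ERAP1 cannot be drawn from these values.

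ERAP2, a related aminopeptidase with another preference for the residue it removes, differed little in its brighter probe sets. The brightest, 227462_at, read 9.18 and 9.38 against 9.18 and 9.41, a difference of 0.02 (SE 0.15). The next, 219759_at, read 8.71 and 8.80 against 8.81 and 8.93, a difference of 0.12 (SE 0.13), with the groups just apart. The probe set 235104_at differed by 0.14 (SE 0.22), and the dim 1554273_a_at and 1554272_at, below 5.11 in all arrays, by 0.14 and 0.35. All 5 were higher in knockdown within both array numbers, against 27.7% of all probe sets, although for 227462_at the first of these differences was 0.00017.

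Over all 18 member probe sets, 15 lay above 0, against 48.7% of all probe sets, and the median difference was 0.11, against -0.0050. Within both array numbers 12 were higher, against 27.7% of all probe sets, 8 of them from ERAP1 and ERAP2, whose probe sets share their transcripts. The groups were apart in the higher direction for 3 (PSMB9, 210385_s_at of ERAP1 and 219759_at of ERAP2), against 13.4% of all probe sets, which is near that background, and for 0 in the lower direction (15.3%). By the brightest probe set, 6 of the 9 genes were higher within both array numbers, against 27.8% of all genes. Of the 9 genes, 2 had a difference of 0.2 or more in both numbers, PSMB8 and PSMB9, as did 4.57% of all genes. A bulk measurement of this kind cannot tell a higher level per cell from more cells with that level.

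The number of the array moved with several of these signals more than the knockdown did. In a limma fit with terms for group and number, the arrays numbered 2 differed from those numbered 1 by -0.92 for PSMB10 (SE 0.13, adjusted p = 0.009) and by -0.57 for PSMB8 (SE 0.12, adjusted p = 0.031). These were 2 of 18 member probe sets past the threshold, both lower in number 2, against 8.09% of all probe sets in either direction. PSMB6 stood at -0.43 (adjusted p = 0.062) and PSMB7 at -0.35 (adjusted p = 0.121) by its brighter probe set. PSMB9 (-0.06), PSMB5 (-0.07) and PSME1 (-0.04) stood near 0. The brightest ERAP1 and ERAP2 probe sets stood at 0.19 and 0.21, in the other direction. The difference between 3′ and 5′ control probe sets of beta-actin, which reflects RNA integrity and amplification, stood at 1.31 and 1.33 for number 1 and at 0.97 and 0.97 for number 2. Its part in these values was not tested, and with 1 array for each group and number, whether the knockdown difference itself depends on the number could not be tested.

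**Figure D3:**
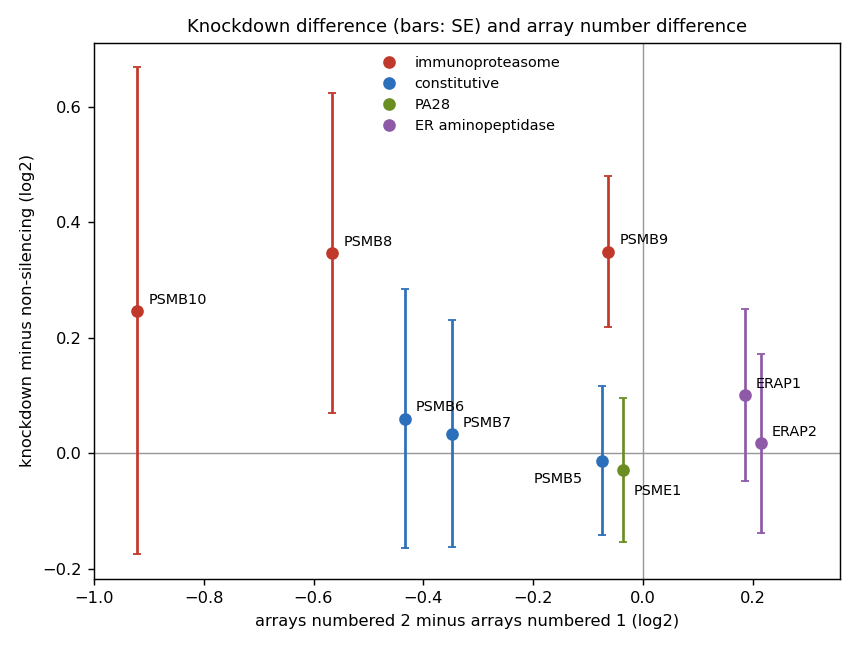
Knockdown minus non-silencing difference (vertical axis, log2, bars are SE) against the difference between arrays numbered 2 and 1 (horizontal axis, log2) for the brightest probe set of each of 9 genes, coloured by group. PSMB10 and PSMB8 lie far to the left with long bars, at -0.92 and -0.57, and PSMB9 lies at -0.06 with a short bar. The SE bars of PSMB8 and PSMB9 are clear of 0, but the 95% interval of PSMB8, -0.35 to 1.04, includes 0 and its groups overlapped. All bars come from the fit without a term for the array number, so a gap between the numbers lengthens them.

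Differences in the rest of the proteasome were mostly below those of the immunoproteasome genes, with exceptions in the 19S cap. The lists for the 20S barrel outside the catalytic set and for the 19S cap, which unfolds and feeds substrates, held 29 measured genes. Of these, 23 lay above 0 with a median of 0.07, against 48.2% of all genes and a median of -0.0066. None of the 29 had an unadjusted limma p under 0.05 or passed the test. Of the 29, 19 were higher within both array numbers, against 27.8% of all genes and 6 of the 9 genes above. Without 1 array the median of the 29 ranged from 0.0086 to 0.13. In the 20S list (median 0.07, 8 of 10 above 0) the beta subunit gene PSMB2 was highest at 0.16 and the alpha subunit gene PSMA1 lowest at -0.07. In the list of 19S ATPases (median 0.01, 4 of 5 above 0) PSMC2 was highest at 0.09 and PSMC3 lowest at -0.0009. The list of other 19S genes (median 0.08, 11 of 14 above 0) is not limited to subunits of the finished cap. PSMD9, a chaperone of cap assembly, was its highest at 0.35, as large a difference as in PSMB8 and PSMB9. PSMD10 was its lowest at -0.03. ADRM1, a ubiquitin receptor of the cap, at 0.27 and PSMD12, a lid subunit, at 0.25 were close to the 0.25 of PSMB10. PSMD9 read 10.72 and 10.25 against 11.12 and 10.56, and its number difference was -0.52 (limma adjusted p = 0.038), so that it had the same order of arrays as PSMB8.

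The separate list of assembly factors, which does not hold PSMD9, had a median of -0.03, with 3 of 6 above 0. PAAF1, which binds 19S ATPases, was lowest at -0.38 (SE 0.22; -0.35 and -0.41 within the numbers) and PSMG3 highest at 0.16. POMP, the maturation factor that helps place the catalytic subunits, differed by 0.0014 (SE 0.13). The other activators and the inhibitor had a median of 0.04 over 3 genes, from PSMF1 at -0.07 to PSME3 (PA28 gamma) at 0.05. The bound deubiquitinases and shuttle factors had a median of 0.02 over 6 genes, from UBQLN2 at -0.02 to RAD23B at 0.06. PSMA8, known from testis, was dim at 3.81 to 4.05 and differed by -0.02.

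Among the partners in peptide supply, medians were larger in the loading and MHC class I lists than in the peptidase list. In the peptide loading list all 7 measured genes lay above 0 and were higher within both array numbers, against 48.2% and 27.8% of all genes, with a median of 0.25. That median was 0.13 without control array 2 and 0.52 without control array 1. TAP1, the neighbour of PSMB9, read 10.42 and 10.45 in the control arrays and 11.16 and 10.87 after knockdown, a difference of 0.58 (SE 0.15; limma adjusted p = 1.0). The groups were apart, as for PSMB9, and the differences within the numbers were 0.74 and 0.42. Lowest was the chaperone gene CANX at 0.11. The MHC class I chains had a median of 0.20 with 5 of 5 above 0, from B2M, the shared light chain, at 0.04 to HLA-E at 0.25. The cytosolic and vesicular peptidases had a median of 0.02 with 5 of 7 above 0, from NLN at -0.14 to NPEPPS at 0.15.

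Known regulators were described in the same way. Among factors known to act on the immunoproteasome genes, 5 of 7 lay above 0 with a median of 0.22 (0.078 without knockdown array 1), from IRF2 at -0.18 to STAT3 at 0.85. STAT3 read 8.16 and 8.28 in the control arrays and 9.66 and 8.47 after knockdown, so that knockdown array 1 stood apart. IRF1, which binds interferon-response elements, read 7.89 and 7.86 against 8.78 and 8.05, a difference of 0.55 (SE 0.26), and NLRC5, the activator of MHC class I genes, read 7.23 and 7.23 against 7.59 and 7.31, a difference of 0.22 (SE 0.15). For all 3 the larger part of the difference lay between the arrays numbered 1. In this list the groups were apart in the higher direction for 4 of 7 genes (STAT3, IRF1, NLRC5 and NFKB1), against 12.4% of all genes, and in the lower direction for 1 (RELA), against 15%. Among regulators of the constitutive proteasome genes, 5 of 6 lay above 0 with a median of 0.04, from NGLY1 at -0.05 to the CCAAT-binding subunit gene NFYB at 0.28. Over all 16 pathway lists, 86 of 97 genes had a probe set annotated to the gene alone and are the genes called measured here. PSME2, read only by a shared probe set, is not among them. Of the 86, 0 passed the test. An unadjusted limma p under 0.05 was found for 3 (PSMB9, TAP1 and TAP2), against 2.64% of all genes, which is near that background.

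**Figure D4:**
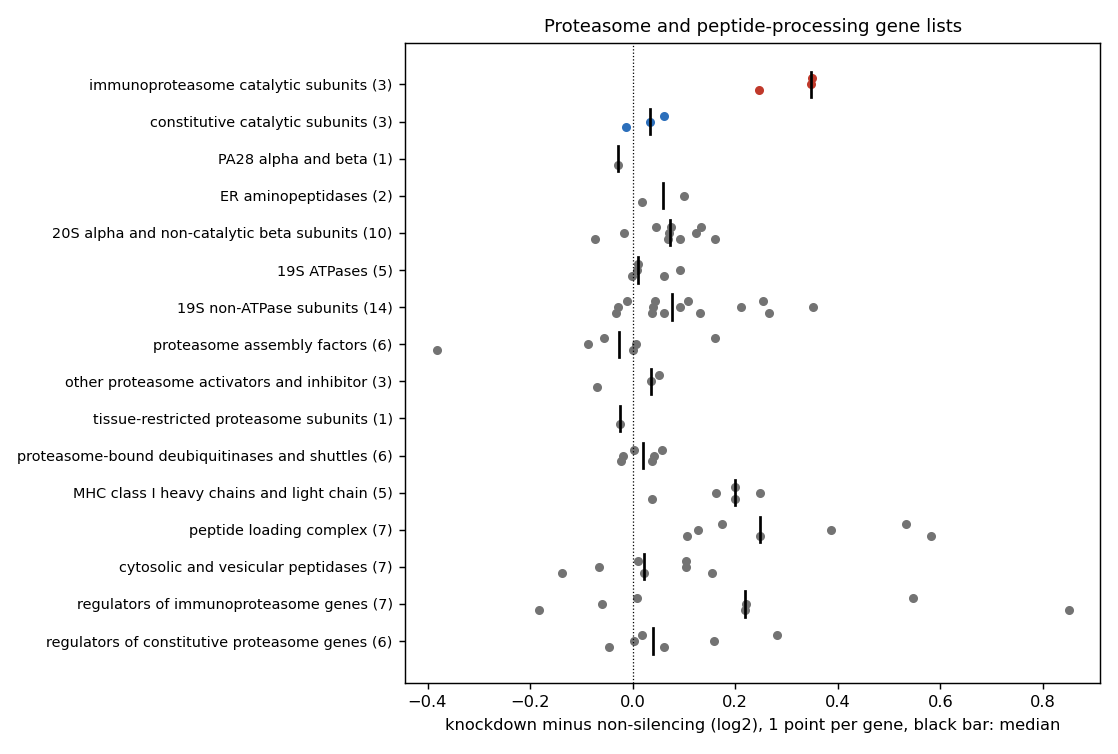
Knockdown minus non-silencing difference (horizontal axis, log2) of each measured gene, 1 point per gene by its brightest probe set, in 16 gene lists (vertical axis, number of genes in brackets); black bars are list medians. With all 4 arrays the immunoproteasome median is 0.35, the peptide loading median 0.25 and the constitutive median 0.03; without knockdown array 1 or without control array 2 the immunoproteasome median (0.022 and 0.11) lies below those of the peptide loading list (0.20 and 0.13) and the MHC class I list (0.22 and 0.24).

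The genes whose signals followed the mean course of PSMB8, PSMB9 and PSMB10 over the 4 arrays most closely were IRF4, POLR3G, MAPKAPK5, WBP4 and LIAS. The measure was the root mean square distance between values centred on each gene's own mean, which was 0.028 for IRF4 and 0.032 for LIAS, against a median of 0.32 over 19766 genes. IRF4, an interferon regulatory factor of lymphoid cells, read 10.77 and 10.33 in the control arrays and 11.15 and 10.61 after knockdown. In all 5 genes the arrays numbered 1 stood above those numbered 2 within each group, by 0.46 to 0.56 on average over the groups, so that the likeness reflects the array number as well as the knockdown. The mean course is also an average of unlike genes. Arrays numbered 2 minus those numbered 1 gave -0.57 for PSMB8, -0.92 for PSMB10 and -0.06 for PSMB9. Likeness to the mean is therefore not likeness to each of them, and none of the 5 had the small number difference of PSMB9.

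The antisense gene PSMB8-AS1, which overlaps the start of PSMB8 in the annotation, gave small differences. Its brighter probe set read 7.77 and 7.70 against 8.05 and 7.60, a difference of 0.09 (SE 0.18) with opposite signs in the 2 array numbers. The dimmer one differed by -0.07 (SE 0.14).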

How the data were processed

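The authors deposited RMA values in log2 units, as the submitters' processing notes name the method; its software is not given in the sources used here. Per the labels' protocols, biotinylated cRNA came from 2 cycles of amplification. Probe sets with a single symbol (41091 of 54613, after 62 controls were left out; 1801 had several and 11721 none) were named from the platform annotation, with symbols looked up in RefSeq GRCh38.p14 (54 not found, 0 renamed). The members, lists and tests were chosen with earlier results of these data known, so the lists are described by counts and medians without a list test. Group differences (knockdown minus non-silencing) were fitted with limma 3.58.1, R 4.3.3 (lmFit, eBayes), over all 54613 probe sets, two-sided, with Benjamini-Hochberg adjustment and a threshold of 0.05; intervals are 95% moderated intervals. List genes were represented by the probe set with the highest mean among those with the gene as single symbol. A gene without such a probe set was not counted as measured. Named genes were all members, PTPN1, the highest and lowest gene of each list, and the 5 nearest in profile. POMP, TAP2, IRF1, NLRC5, NFKB1, RELA, ADRM1, PSMD12, TNFRSF8, CD3D, CD3G, MS4A1, CSF1R, COL1A1, COL1A2, DCN and PSMB8-AS1 fall outside this rule and were picked with their values known. The fit was tested on simulated data with independent arrays and a change larger than any member difference here. That test does not speak for differences of the size seen here or for variation shared within an array number. Alternatives were quantile normalization, centring, other variance models, a filter on dim probe sets, 1 probe set per gene, the mean of a gene's probe sets, a replicate block, and leaving out each array. The number of arrays limits the precision.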

Additional observations from a re-analysis of the deposited data

How the results depend on the processing

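The count of 0 member probe sets past the threshold held under all 12 alternatives run, and so did the count of 0 listed genes under 9. Over all probe sets the count of 0 (1364 at an unadjusted limma p under 0.05) became 164 with the array number as a replicate block, none of them a member (4 members had an unadjusted p under 0.05 there), and ranged from 0 to 1 without 1 array. Under that block PTPN1 passed (adjusted p = 0.0153). Nothing in the labels links the numbers to a batch, and the correlation of same-numbered arrays' deviations from their group means was 0.59 over 54613 probe sets. Arrays of a number thus shared variation, but 2 numbers without a stated origin do not establish pairs, and the block is given as an alternative. Without 1 array the differences within catalytic pairs ranged from 0.094 to 0.63 (PSMB8 and PSMB5), 0.075 to 0.50 (PSMB9 and PSMB6) and -0.12 to 0.55 (PSMB10 and PSMB7). The sign of 10 member probe sets turned without at least 1 array, with ranges of -0.29 to 0.78 for PSMB10, -0.071 to 0.045 for PSMB5, -0.16 to 0.28 for PSMB6, -0.17 to 0.23 and -0.047 to 0.096 for PSMB7 (200786_at and 244801_at), -0.015 to 0.22, -0.34 to 0.25 and -0.16 to 0.35 for ERAP1 (209788_s_at, 209701_at and 214012_at), and -0.098 to 0.13 and -0.10 to 0.39 for ERAP2 (227462_at and 235104_at). With arrays centred on their medians PSMB5 was 0.0049. The median of the immunoproteasome list ranged from 0.022 to 0.67. In each such fit the lone array is assumed to vary like the other group. RMA compresses dim signals, which limits the ERAP1 and ERAP2 probe sets below 5.11.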
